A study of Mus musculus with 6 samples.

Results

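Disc1 and 6 genes whose proteins bind its product were followed through the deposited data of mice given dihydrotestosterone or oil: the phosphodiesterase genes Pde4b and Pde4d, the dynein adaptor genes Nde1 and Ndel1, the LIS1 gene Pafah1b1, and the kinesin adaptor gene Fez1. The members are these 7 of the 11368 genes tested, with 121 of the 315379 measured exon and splicing events and 15 of the 11895 listed circular RNAs (circRNAs, rings closed by a back-splice). Disc1 was chosen by its gene value in the comparison of these groups, so all its values are given as a description with no test. The others were added as its known partners. The partners were tested in fits over all genes, events or circRNAs. RNA came from hippocampal tissue of 14-month-old male C57BL/6 mice, in 3 libraries from mice injected under the skin once a day for 14 days with dihydrotestosterone (DHT, an androgen that aromatase does not turn into oestrogen) and 3 libraries from mice injected in the same way with medical corn oil. No genetic change is given for either group, and the DHT samples are also described as the testosterone group. The labels do not say that each library is 1 mouse, so p-values measure the spread between libraries, which may be technical.

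DISC1 is a scaffold protein that sits at the centrosome, at mitochondria and along microtubules of neurons and brings enzymes and motor adaptors together. PDE4B and PDE4D break down cyclic AMP (cAMP) and bind DISC1 until cAMP signalling releases them. NDE1 and NDEL1 tie the dynein motor to LIS1, a complex needed when neurons migrate and when nuclei and vesicles move, and loss of human LIS1 causes a smooth cortex. FEZ1 links cargo to kinesin and takes part in axon growth.

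The libraries held 43512 to 55325 back-splice junction reads of 143 to 177 M mapped reads (M, mega). Coordinates below are those of the files, which match GRCm38, although the submitters' processing notes list mm9. Event values are FPKM, fragments per kilobase per M reads, and a gene value is the larger of the summed first-exon and summed last-exon events of a locus. With no rescaling 63.6% of tested genes were higher in DHT libraries, the median log2 fold change being 0.07, and 51.4% were higher once each library was centred on its median. Of 10 hippocampal marker genes 6 had a mean of at least 0.5 FPKM, 2 were over 5 FPKM, and Dsp was listed at 0 in all 6 libraries. Of 9 striatal markers 8 were over 5 FPKM, and Drd1 was listed at 0 in all. In bulk RNA, fewer cells of a type and less RNA per cell cannot be told apart. The summed markers of neurons, oligodendrocytes, astrocytes and endothelium overlapped between the groups, whereas the 5 microglial markers summed to 15.8, 20.5 and 18.5 FPKM in DHT libraries against 23.3, 21.5 and 22.01 FPKM in oil libraries, without overlap. P2ry12 and Csf1r, taken singly among them, overlapped between the groups. Their part in the results below was not tested.

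The 7 genes spanned from among the most abundant tested transcripts to among the least. Over the 6 libraries Pafah1b1 had a mean gene value of 32.5 FPKM, above 96.5% of the tested genes, and Fez1 had 30.2 FPKM. Pde4b followed at 21.4 FPKM, then Pde4d at 11.8 FPKM and Ndel1 at 11.4 FPKM. Nde1, the close relative of Ndel1, stood at 1.46 FPKM, and Disc1 at 1.06 FPKM, above 12.4% of tested genes. The ranges of Pde4d and Ndel1 overlapped in oil and in DHT libraries, so the order of this pair is within their spread. Those of Fez1 and Pafah1b1 overlapped in DHT libraries only. In oil libraries Pafah1b1, at 32.3 to 34.8 FPKM, lay above Fez1, at 28.1 to 30.7 FPKM. Disc1 lay below Nde1 in oil libraries only, at 0.268 to 0.670 FPKM against 0.981 to 2.02 FPKM. In DHT libraries Disc1, at 1.64 to 1.73 FPKM, lay within the range of Nde1, 1.17 to 2.22 FPKM.

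**Figure D1:**
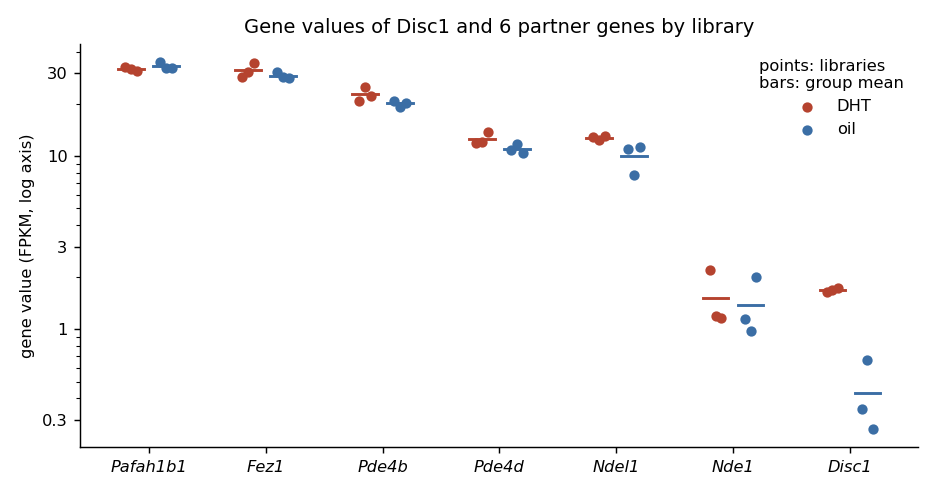
Gene values (FPKM, log axis) of the 7 genes, ordered by their mean; red points are the 3 DHT libraries, blue points the 3 oil libraries and bars the group means. On the log axis Disc1 is the gene whose groups stand farthest apart, at 1.64 to 1.73 FPKM in DHT libraries against 0.268 to 0.670 FPKM in oil libraries.

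Disc1, the scaffold, had a gene value of 1.64, 1.70 and 1.73 FPKM in DHT libraries against 0.347, 0.670 and 0.268 FPKM in oil libraries. All 3 DHT libraries were above all 3 oil libraries, with a log2 fold change of 1.26 on the scale of FPKM + 0.5. These are the values Disc1 was picked for. Its mean was 1.69 ± 0.0455 FPKM in DHT libraries and 0.428 ± 0.213 FPKM in oil libraries (SD, n = 3 each). A mean of 0.5 FPKM over all libraries was asked of tested genes, and Disc1 passed through the DHT libraries. Each of these values is a sum of first-exon events, since the 1 last-exon event on its strand held 0, 0 and 0.176 FPKM in DHT libraries against 0, 0.115 and 0 FPKM in oil libraries.

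The difference in Disc1 did not lie at its annotated start. RefSeq places the start of Disc1 at 125054195 on the plus strand of chromosome 8 (GRCm38), inside a deposited first exon from 125053676 to 125054284. That exon held 0.174, 0.416 and 0.165 FPKM in DHT libraries against 0.189, 0.00235 and 0.268 FPKM in oil libraries, which overlap. The promoter window of RefSeq, 250 bases before to 50 after this start, is shown because it lies wholly within that deposited exon, as the capitals mark.
Disc1 window, GRCm38.p6, chr8:125053945-125054244, plus strand: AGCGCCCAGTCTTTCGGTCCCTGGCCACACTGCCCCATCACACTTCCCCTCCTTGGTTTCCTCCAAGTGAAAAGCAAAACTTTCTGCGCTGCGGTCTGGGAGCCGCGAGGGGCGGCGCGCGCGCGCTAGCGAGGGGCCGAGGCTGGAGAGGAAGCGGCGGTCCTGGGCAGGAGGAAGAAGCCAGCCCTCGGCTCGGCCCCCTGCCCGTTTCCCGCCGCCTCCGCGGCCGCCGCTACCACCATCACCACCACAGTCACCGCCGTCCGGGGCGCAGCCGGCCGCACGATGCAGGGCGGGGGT

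The separation came from 4 first exons in the last 22.7 kb of the gene. They begin 193.64 to 205.57 kb from the 5′ bound of the gene in RefSeq, 125048767. Distances in kb are taken from that bound, which lies upstream of the start at 125054195. Summed, these 4 exons held 1.002, 1.28 and 1.56 FPKM in DHT libraries against 0, 0.668 and 0 FPKM in oil libraries. They made up 61.3%, 75.5% and 90.4% of the Disc1 value in DHT libraries against 0%, 99.6% and 0% in oil libraries. No single one of the 4 was high in every DHT library. The exon of 105 bases from 125254339 to 125254443 was at 0.161, 0.401 and 1.11 FPKM in DHT libraries but at 0 in each of the 3 oil libraries. The overlapping stretch of 7060 bases from 125254092 to 125261151, given as a first exon, was at 0.841 FPKM in DHT library 1 and 0.705 FPKM in DHT library 2, listed at 0 in DHT library 3, and at 0, 0.668 and 0 FPKM in oil libraries. DHT library 3 held in its place an exon from 125254339 to 125255217 at 0.450 FPKM, and DHT library 2 an exon from 125242403 to 125243068 at 0.174 FPKM, both listed at 0 in the other 5 libraries. Exons at 85.3 and 106 kb from the 5′ bound were each above 0 in 1 library, oil library 1 (0.158 FPKM) and DHT library 1 (0.460 FPKM). The grouping by position was made after these values were seen. With the annotated first exon alone the log2 fold change was 0.21, and with all first exons but the 4 near the end it was 0.36.

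**Figure D2:**
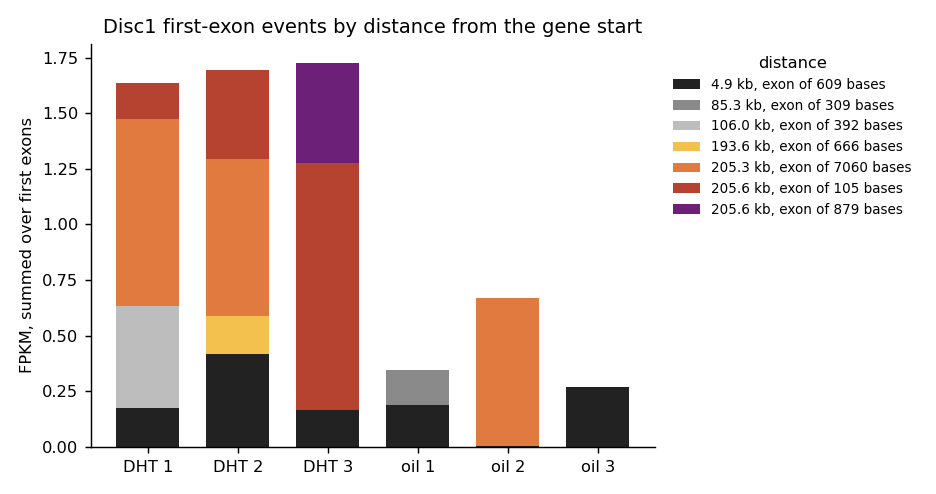
Disc1 first-exon events in each library, stacked, where the height of a colour is its FPKM. The legend gives its length in bases and its distance in kb from the 5′ bound of the gene in RefSeq, 125048767. The black part, the annotated first exon, overlaps in size between DHT and oil libraries, while the orange, red and purple parts, 205 kb and more into the gene, fill most of each DHT bar.

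Splicing of Disc1 was measured at 3 pairs of events (a version with and a version without an exon), none with a mean of 0.5 FPKM. Transcripts from the annotated first exon skipped the exon from 125075050 to 125075166 wherever they were measured, at 0.174, 0.416 and 0.165 FPKM in DHT libraries against 0.189, 0.00235 and 0.268 FPKM in oil libraries, with the version including it listed at 0. The exon from 125164993 to 125165181 was included wherever it was measured, at 0.460, 0.179 and 0 FPKM in DHT libraries against 0.192, 0 and 0.231 FPKM in oil libraries, which overlap. A locus assigned to Disc1 on the opposite strand was listed at 0 in all 6 libraries. No Disc1 circle was listed in any library. Over all 286240 junction reads, a count of 0 allows up to 10.5 reads per M junction reads, a limit that covers counting error only, and a circle with 1 read in a library would be unlisted.

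Among the genes whose values followed Disc1 most closely over the 6 libraries were Grwd1, a ribosome assembly gene (Pearson r = 0.993), Elmo1, an activator of Rac (0.986), the histone demethylase gene Kdm4a (0.986) and Igsf21 (0.985). They are among the 5 highest of all tested genes, given as a description over 6 libraries that share the treatment split. Kdm4a, as an example, was at 5.03, 4.88 and 4.64 FPKM in DHT libraries against 3.45, 3.87 and 3.27 FPKM in oil libraries. Among the partners r ran from -0.627 for Pafah1b1 to 0.831 for Pde4d.

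For the 6 partners the comparison asked whether genes acting with DISC1 differed after DHT. By limma none reached an adjusted p under 0.05, a threshold passed by 0.0176% of tested genes (2 of 11368). Unadjusted p was under 0.05 for 0 of the 6, where 5.79% of tested genes were so on the higher side and 1.55% on the lower. Of the 6, 5 were higher in DHT libraries and 1 was lower, their median log2 fold change being 0.13, or 0.07 with centred libraries. Groups did not overlap for 2 of them, Ndel1 and Pde4d, both higher, as for 12% of tested genes, and 3.15% were apart on the lower side.

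Ndel1 had the largest partner difference, 12.9, 12.3 and 13.1 FPKM in DHT libraries against 10.9, 7.77 and 11.2 FPKM in oil libraries. All DHT libraries were above all oil libraries, and oil library 2 was the lowest of the 6. The means were 12.8 ± 0.402 FPKM in DHT libraries and 9.98 ± 1.92 FPKM in oil libraries (SD, n = 3 each), with a log2 fold change of 0.36 (SE 0.15, limma adjusted p = 0.658). Without oil library 2 the log2 fold change was 0.20 (limma adjusted p = 0.780, the alternatives together running from 0.639 to 0.825). One first exon (68852942 to 68853135, chromosome 11, minus strand), whose 5′ end is the RefSeq start, held at least 90.8% of first-exon FPKM in every library. That exon alone was at 12.7, 11.7 and 13.1 FPKM in DHT libraries against 10.9, 7.05 and 8.99 FPKM in oil libraries, also without overlap. Nde1, which serves the same motor in dividing progenitors above all, was at 2.22, 1.20 and 1.17 FPKM in DHT libraries against 1.16, 0.981 and 2.02 FPKM in oil libraries. DHT library 1 and oil library 3 were high and the other 4 lay together, so the groups overlapped (log2 fold change 0.11 ± 0.27 SE, limma adjusted p = 0.942). The direction turned when DHT library 1 (-0.12) or oil library 2 (-0.049) was left out.

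Pafah1b1 encodes LIS1, the protein that NDE1 and NDEL1 bring to dynein. Its gene value was 32.5, 32.0 and 30.9 FPKM in DHT libraries against 34.8, 32.4 and 32.3 FPKM in oil libraries, which overlap (log2 fold change -0.06 ± 0.09 SE, limma adjusted p = 0.875). For 2 of its 3 first exons, by contrast, the shares did not overlap between the groups, and the remaining one held under 1% in every library. The 2 shares are therefore near complements of each other and count as 1 difference. The upstream one (74723999 to 74724335, chromosome 11, minus strand) took 80.0%, 78.1% and 78.7% of first-exon FPKM in DHT libraries against 69.9%, 75.9% and 74.9% in oil libraries. The downstream one (74723200 to 74723858), whose 5′ end is the RefSeq start, took 19.98%, 21.7% and 20.4% in DHT libraries against 29.6%, 23.8% and 25.0% in oil libraries. In FPKM the downstream exon was at 6.50, 6.93 and 6.30 in DHT libraries against 10.3, 7.72 and 8.08 in oil libraries, while the upstream one was at 26.0, 25.0 and 24.3 in DHT libraries against 24.3, 24.6 and 24.2 in oil libraries. The log2 change in use of the downstream exon was -0.41 (SE 0.22, limma adjusted p = 0.908), so it was not past the threshold. Among the 37319 first-exon events tested 0% passed, none of those named here did, and 11.8% did not overlap between the groups. Unadjusted p was under 0.05 for 4.69% of them, and for no partner first exon that was above 0 in any library. Of the 10594 events with a mean share between 10% and 90%, 0.0189% passed when adjusted among themselves, 5.08% had an unadjusted p under 0.05 and 10.7% did not overlap. Pafah1b1 also has processed copies, Pafah1b1-ps1 and Pafah1b1-ps2, with which reads may be shared. The window below is shown because it holds parts of both first exons: the capitals at its 5′ end are the end of the upstream exon, those at its 3′ end the beginning of the downstream exon, and the lower-case bases between them lie in neither.
Pafah1b1 window, GRCm38.p6, chr11:74723809-74724108, minus strand: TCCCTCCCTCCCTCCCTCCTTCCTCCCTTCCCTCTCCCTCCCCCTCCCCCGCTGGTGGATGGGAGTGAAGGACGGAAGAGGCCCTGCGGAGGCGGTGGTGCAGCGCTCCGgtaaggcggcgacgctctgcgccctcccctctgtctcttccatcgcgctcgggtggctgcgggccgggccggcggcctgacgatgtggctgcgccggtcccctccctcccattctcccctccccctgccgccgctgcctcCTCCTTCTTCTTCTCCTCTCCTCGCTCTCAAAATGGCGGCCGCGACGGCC

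Fez1, the kinesin adaptor gene, was at 28.8, 30.7 and 34.3 FPKM in DHT libraries against 30.7, 28.6 and 28.1 FPKM in oil libraries, which overlap (log2 fold change 0.10 ± 0.10 SE, limma adjusted p = 0.822). In 1 library its first exons were used otherwise than in the rest. The exon from 36832684 to 36832911 (chromosome 9, plus strand) took 46.0% of first-exon FPKM in DHT library 2, against 9.39% in DHT library 1, 14.0% in DHT library 3 and, in oil libraries, 12.1%, 6.402% and 9.18%. The exon from 36843659 to 36844017 took 48.1% in DHT library 2, and 87.9% and 80.6% in the other DHT libraries against 84.5%, 91.4% and 84.6% in oil libraries. The gene value of DHT library 2 lay between those of the other DHT libraries. For the exon at 36832684 the log2 change in use was 1.18 (SE 0.75, limma adjusted p = 0.908), and without DHT library 2 it was 0.33. The exon from 36833635 to 36833836 held under 3% in every library and is named after its values were seen: it was at 0.162%, 2.49% and 2.10% in DHT libraries against 0.132%, 0.0916% and 0.119% in oil libraries, without overlap. The window whose RefSeq start lies in the exon at 36832684 is shown because that exon sets DHT library 2 apart, and the capitals are its bases within the deposited exon.
Fez1 window, GRCm38.p6, chr9:36832490-36832789, plus strand: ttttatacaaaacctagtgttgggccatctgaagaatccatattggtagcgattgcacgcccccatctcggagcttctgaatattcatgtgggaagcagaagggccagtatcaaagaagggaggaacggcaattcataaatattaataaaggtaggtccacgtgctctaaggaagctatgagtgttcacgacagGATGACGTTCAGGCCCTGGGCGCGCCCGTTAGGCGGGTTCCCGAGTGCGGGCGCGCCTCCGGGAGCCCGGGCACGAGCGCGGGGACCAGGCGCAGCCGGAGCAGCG

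**Figure D3:**
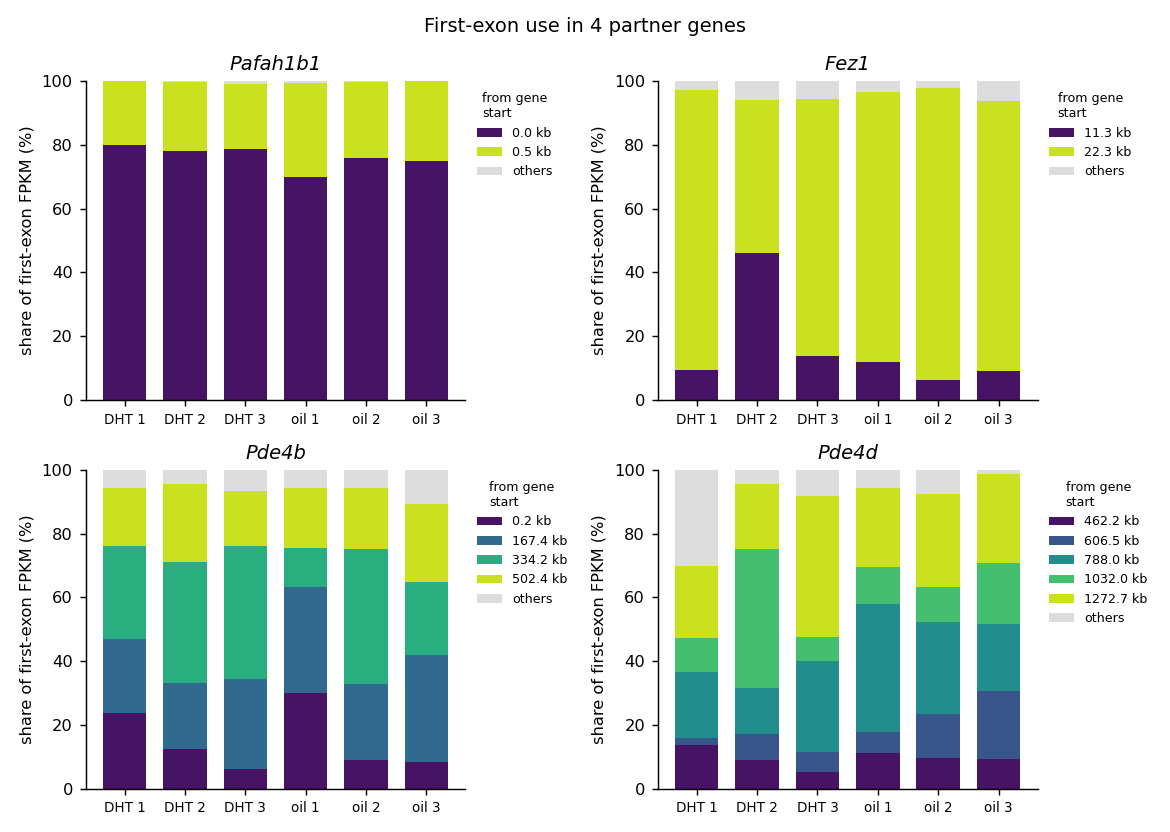
Share of first-exon FPKM (per cent) taken by each first exon of 4 partner genes in the 6 libraries. Colours are exons ordered by distance in kb from the 5′ bound of the gene in RefSeq, and grey sums exons of under 5% on average. The downstream Pafah1b1 exon (0.5 kb) takes 19.98% to 21.7% in DHT libraries against 23.8% to 29.6% in oil libraries, and DHT library 2 stands apart for Fez1.

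Both phosphodiesterase genes start at many first exons, known to give long and short enzymes that differ in the regulatory parts that bind DISC1. Pde4b was at 20.7, 25.1 and 22.2 FPKM in DHT libraries against 20.9, 19.2 and 20.3 FPKM in oil libraries, which overlap (log2 fold change 0.16 ± 0.11 SE, limma adjusted p = 0.721). Of its 12 first exons, in 3 loci, 10 were above 0 in some library and 5 in all 6. The fullest, from 102421518 to 102421820 (chromosome 4, plus strand), took 29.1%, 37.9% and 41.5% of first-exon FPKM of the main locus in DHT libraries against 12.3%, 42.4% and 22.9% in oil libraries. The next, from 102254742 to 102255456, took 23.2%, 20.7% and 28.5% in DHT libraries against 33.2%, 23.7% and 33.6% in oil libraries. The exon nearest the 3′ end, from 102589723 to 102590201, took 18.2%, 24.5% and 17.4% in DHT libraries against 19.0%, 19.2% and 24.4% in oil libraries. All 3 overlapped between the groups, with log2 changes in use of 0.77 (SE 0.59), -0.42 (SE 0.30) and -0.09 (SE 0.26) and limma adjusted p of 0.908, 0.908 and 0.971. The first of these changes was 0.24 without oil library 1 and 1.34 without oil library 2. Apart from these, the exon at the start of the gene (102087543 to 102087788) swung among replicates, at 4.69, 2.90 and 1.35 FPKM in DHT libraries against 6.25, 1.74 and 1.63 FPKM in oil libraries. The sequence of the fullest first exon was also spliced in as an internal exon (102421549 to 102421820), at 0.0707, 0.216 and 1.33 FPKM in DHT libraries against 0, 0.271 and 0.0470 FPKM in oil libraries. Transcripts that skipped it were at 4.49, 4.61 and 4.98 FPKM in DHT libraries against 6.92, 4.28 and 6.48 FPKM in oil libraries, so inclusion was the rarer form in all 6. The windows of the fullest and of the last exon are shown because they belong to Pde4b starts used in all 6 libraries, with the deposited exon in capitals.
Pde4b window 1, GRCm38.p6, chr4:102421305-102421604, plus strand: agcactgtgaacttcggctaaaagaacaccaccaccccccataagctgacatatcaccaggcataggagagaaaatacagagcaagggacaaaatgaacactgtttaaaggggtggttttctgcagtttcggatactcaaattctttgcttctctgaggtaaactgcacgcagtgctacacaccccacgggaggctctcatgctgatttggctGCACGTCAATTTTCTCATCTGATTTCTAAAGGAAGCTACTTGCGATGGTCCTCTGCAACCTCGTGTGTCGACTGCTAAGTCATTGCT
Pde4b window 2, GRCm38.p6, chr4:102589593-102589892, plus strand: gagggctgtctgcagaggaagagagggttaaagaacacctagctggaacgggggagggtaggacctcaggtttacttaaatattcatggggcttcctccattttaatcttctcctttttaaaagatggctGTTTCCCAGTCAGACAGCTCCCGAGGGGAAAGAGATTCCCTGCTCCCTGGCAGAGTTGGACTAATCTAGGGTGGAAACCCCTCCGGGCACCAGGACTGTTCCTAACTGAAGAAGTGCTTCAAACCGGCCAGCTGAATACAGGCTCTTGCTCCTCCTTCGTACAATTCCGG

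The 12 RefSeq windows of the 7 genes were searched on both strands for the androgen response element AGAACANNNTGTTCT, for its 6-base arm AGAACA (or TGTTCT, also found within the full element) and for the cAMP response element TGACGTCA. The full element was in 0 of the 12, and in 0.00913% of the 32851 windows of all genes. The 6-base arm was in 2 of the 12, both Pde4b windows printed above, and in 19.0% of all windows. The cAMP element was in 0 of the 12 and in 1.79% of all. A match or its absence describes only these letters.

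Pde4d was at 11.9, 12.02 and 13.8 FPKM in DHT libraries against 10.9, 11.7 and 10.4 FPKM in oil libraries. The groups did not overlap, though DHT library 1 and oil library 2 nearly met (log2 fold change 0.19 ± 0.11 SE, limma adjusted p = 0.698). Measured by its fullest event it was at 10.1, 10.9 and 10.7 FPKM in DHT libraries against 8.85, 8.35 and 7.14 FPKM in oil libraries, a log2 fold change of 0.37 ± 0.11 SE (limma adjusted p = 0.619), and with last-exon sums, which hold little of this gene, the direction turned (-0.31). Its 17 first exons were spread over 4 loci. The exon from 109926844 to 109927272 (chromosome 13, plus strand) took 22.6%, 20.5% and 44.0% of the main locus in DHT libraries against 24.9%, 29.0% and 27.6% in oil libraries. The exon from 109442183 to 109442353 took 20.9%, 14.3% and 28.5% in DHT libraries against 40.1%, 28.9% and 20.7% in oil libraries. The exon from 109686156 to 109686220 took 43.6% in DHT library 2, 10.7% and 7.45% in the other DHT libraries, against 11.6%, 11.1% and 19.4% in oil libraries. DHT library 2 thus stood apart here as it did for Fez1. None of the 3 passed, with log2 changes in use of 0.05 (SE 0.43), -0.60 (SE 0.42) and 0.26 (SE 0.75) and limma adjusted p of 0.989, 0.908 and 0.969. DHT library 1 alone held an exon from 109903106 to 109903689 at 3.08 FPKM, where the other 5 libraries had 0.0499 to 0.0970 FPKM.

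Within the Pde4d body the intron from 109948394 to 109949414 was spliced out at 10.1, 10.6 and 10.7 FPKM in DHT libraries against 8.85, 7.25 and 6.84 FPKM in oil libraries, without overlap. The version keeping the intron was listed at 0 in all DHT libraries and oil library 1, and was at 0.366 and 0.329 FPKM in oil libraries 2 and 3. The log2 change in retained over spliced FPKM was -0.94 (SE 0.33, limma adjusted p = 0.917). The pair is named after its values were seen. It was the only member pair with an unadjusted p under 0.05, among 13 with a mean of at least 0.5 FPKM, where 4.91% of 37209 tested pairs had one, 0.00806% passed the adjusted p and 11.3% did not overlap in use. Another Pde4d pair, the 1 member pair of these 13 with a mean share between 10% and 90%, was the exon from 108685994 to 108686093. It was included at 0 FPKM in all DHT libraries and at 0.292, 0.490 and 0 FPKM in oil libraries, and skipped at 0.820, 0.772 and 0.540 FPKM in DHT libraries against 0.494, 0.359 and 0.972 FPKM in oil libraries (log2 change -0.71 ± 0.50 SE, limma adjusted p = 0.917). Of the 10923 pairs with such shares 0% passed, 4.89% had an unadjusted p under 0.05 and 9.55% did not overlap.

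The other member pairs were nearly all one way. A 37-base exon of Pde4b was included in 97.7% of the pair's FPKM. A Fez1 exon of 74 bases was listed at 0 in every library beside 26.5 to 32.5 FPKM without it, and retention of the Pafah1b1 intron from 74684508 to 74685896 made up 0.000927% of its pair. In Ndel1 a 35-base exon (68826170 to 68826204) was included at 0.817, 1.33 and 0.0449 FPKM in DHT libraries against 0.198, 0.0374 and 2.31 FPKM in oil libraries. Skipping it was at 12.1, 10.99 and 12.5 FPKM in DHT libraries against 10.3, 6.83 and 8.93 FPKM in oil libraries, which did not overlap, as the gene value did not (log2 change in inclusion -0.34 ± 0.76 SE, limma adjusted p = 0.959).

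Circles came from 5 of the 7 genes, and Disc1 and Nde1 had none listed. The 15 circles, 9 exonic and 6 intronic, held 94 back-splice reads in DHT libraries against 106 in oil libraries. Only 2 were listed in all 6 libraries, and 4 were listed in 1. Per M junction reads they came to 868, 482 and 506 in DHT libraries against 871, 546 and 895 in oil libraries, with overlap. At these counts most changes cannot be seen, and of the 3 member circles with at least 20 reads none passed edgeR's test, as 0% of 2524 tested circRNAs did. With an unadjusted p under 0.05 there were 0 of the 3, against 3.13% of all by edgeR and 2.89% by DESeq2, which also called 0.

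**Figure D4:**
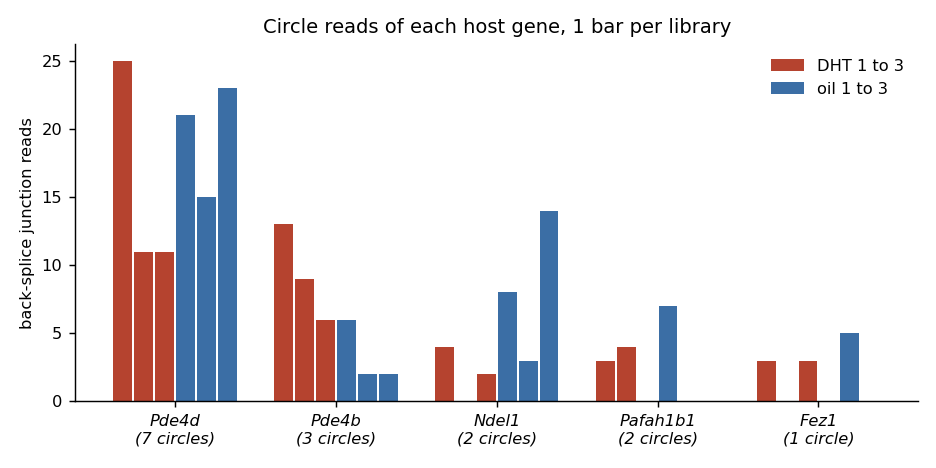
Back-splice junction reads summed over the circles of each host gene, 1 bar per library; red bars are DHT libraries 1 to 3 and blue bars oil libraries 1 to 3, and a gap is a library with no listed read. Pde4b has 28 reads in DHT libraries against 10 in oil libraries, and Ndel1 has 6 in DHT libraries against 25 in oil libraries.

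Pde4b circles leaned to the DHT libraries. The exonic circle from 102487211 to 102506042 gave 13, 5 and 2 reads in DHT libraries against 0, 2 and 0 in oil libraries, a log2 fold change of 2.95 ± 1.51 SE (edgeR adjusted p = 0.996). Beside it the files give 244 to 290 linear reads where it was listed, so it made up 1.97% of the reads there (95% Wilson interval 1.31% to 2.97%, counting error only). Most of its reads are in DHT library 1, and with any 1 library left out the log2 fold change lay between 2.13 and 5.67. A circle from 102188616 to 102195074 gave 0, 0 and 4 reads in DHT libraries against 6, 0 and 2 in oil libraries, so the circles of this gene did not move together. Summed over its 3 circles Pde4b had 13, 9 and 6 reads in DHT libraries against 6, 2 and 2 in oil libraries, a log2 fold change of 1.34 ± 0.85 SE (edgeR adjusted p = 0.999).

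Ndel1 circles leaned the other way. The circle from 68829915 to 68845424 gave 4, 0 and 0 reads in DHT libraries against 3, 3 and 9 in oil libraries, and the one from 68836150 to 68845424, which shares its upstream edge, had 0, 0 and 2 reads in DHT libraries against 5, 0 and 5 in oil libraries. Together they gave 6 reads in DHT libraries against 25 in oil libraries, a log2 fold change of -2.14 ± 1.12 SE (edgeR adjusted p = 0.999). The per-library sums overlap, at 4, 0 and 2 reads in DHT libraries against 8, 3 and 14 in oil libraries, while the linear gene value was the higher one in DHT libraries. Among 1711 host genes 0% passed edgeR's test of summed circles, 4.21% had an unadjusted p under 0.05 (4.38% by DESeq2, which also called 0) and 11% did not overlap, of which Pde4b was 1 by level.

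Pde4d was the richest host, with 7 circles and 106 reads, 47 in DHT libraries against 59 in oil libraries. The circle from 109740387 to 109772680 gave 13, 3 and 6 reads in DHT libraries against 6, 10 and 7 in oil libraries, a log2 fold change of -0.20 ± 0.61 SE (edgeR adjusted p = 0.996). The circle from 109933868 to 109939361 gave 4, 8 and 2 reads in DHT libraries against 5, 5 and 5 in oil libraries, a log2 fold change of -0.22 ± 0.88 SE (edgeR adjusted p = 0.996). Both overlapped, and they made up 3.33% and 2.24% of the reads at their sites (Wilson intervals 2.497% to 4.42% and 1.56% to 3.19%). The other 5 were intronic and rarer, among them 1 from 108653444 to 108654265 with 0, 0 and 3 reads in DHT libraries against 6, 0 and 4 in oil libraries. It ends at 108654265, the end of the deposited first exon that begins at the RefSeq start of Pde4d. That first exon was itself listed at 0 FPKM in all 6 libraries. Pafah1b1 and Fez1, the most abundant of the 7 as linear RNA, gave few circles. The fullest Pafah1b1 circle (74682235 to 74699520) had 0, 4 and 0 reads in DHT libraries against 7, 0 and 0 in oil libraries. The Fez1 circle (36850347 to 36863665) had 3, 0 and 3 reads in DHT libraries against 0, 5 and 0 in oil libraries. They made up 0.357% and 0.242% of reads at their sites, counting only the libraries that list each circle. Linear reads of the other libraries are not given, so these shares leave them out.

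The wider set of DISC1 pathway genes gave no call. Of 59 genes listed by known function, 55 were tested and by limma 0 reached an adjusted p under 0.05. Unadjusted p was under 0.05 for 5 on the higher side and 1 on the lower, beside 5.79% and 1.55% of all tested genes. Groups did not overlap for 15 on the higher side and 2 on the lower, beside 12% and 3.15% of all. In all 38 were higher and 17 lower in DHT libraries, 69.1% higher, their median log2 fold change being 0.15, beside 63.6% and 0.07 for all tested genes. With centred libraries 36 of the 55 were higher, with a median of 0.09, beside 51.4% and 0.01.

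By role, 9 of 15 LIS1 and dynein genes, 12 of 16 cAMP genes, 9 of 13 centrosome and transport genes and 8 of 10 signalling partners were higher in DHT libraries. Of all tested genes 63.6% were. With centred libraries these counts were 9, 10, 9 and 8, beside 51.4% of all tested genes. The smallest p on the higher side belonged to Fbxw7, which encodes the ubiquitin ligase subunit that marks DISC1 for breakdown. It was at 39.7, 31.8 and 34.4 FPKM in DHT libraries against 28.9, 22.4 and 19.8 FPKM in oil libraries, a log2 fold change of 0.58 ± 0.16 SE (limma adjusted p = 0.652). Dync1i1, a dynein intermediate chain gene, was at 16.0, 15.1 and 13.2 FPKM in DHT libraries against 11.7, 10.6 and 11.8 FPKM in oil libraries (0.36 ± 0.11 SE, limma adjusted p = 0.652). Atf4, a stress transcription factor that binds DISC1, was at 20.6, 22.2 and 19.5 FPKM in DHT libraries against 13.7, 18.3 and 15.7 FPKM in oil libraries (0.38 ± 0.13 SE, limma adjusted p = 0.656). In each of these the groups did not overlap.

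On the lower side Dcx, which encodes the microtubule protein doublecortin of young migrating neurons, was at 2.63, 3.12 and 1.91 FPKM in DHT libraries against 4.11, 4.29 and 3.57 FPKM in oil libraries, a log2 fold change of -0.57 ± 0.17 SE (limma adjusted p = 0.652). Dync1i2, the other intermediate chain gene, was at 13.2, 14.4 and 15.3 FPKM in DHT libraries against 16.8, 16.0 and 16.1 FPKM in oil libraries, so the paired chain genes differed in opposite directions, neither past the threshold (-0.19 ± 0.10 SE, limma adjusted p = 0.681). Gsk3b, a kinase gene whose product DISC1 inhibits, was at 12.3, 17.7 and 14.4 FPKM in DHT libraries against 16.5, 18.3 and 17.8 FPKM in oil libraries, which overlap (-0.25 ± 0.15 SE, limma adjusted p = 0.697). Tsnax, the gene just upstream of Disc1, was at 19.1, 18.6 and 8.43 FPKM in DHT libraries against 15.6, 17.3 and 17.9 FPKM in oil libraries, which overlap, with DHT library 3 lowest (-0.22 ± 0.30 SE, limma adjusted p = 0.864).

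**Figure D5:**
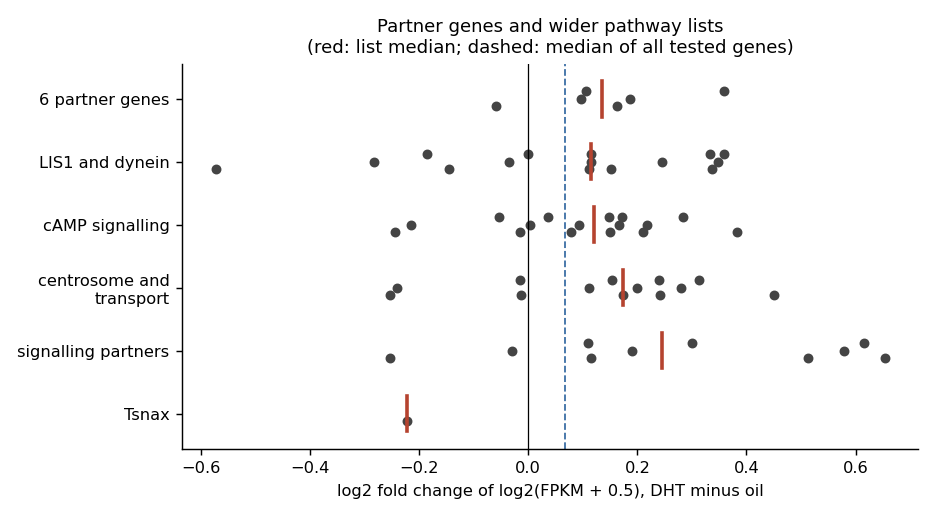
Log2 fold changes (DHT minus oil, on the scale of FPKM + 0.5) of the 6 partner genes and of the wider lists by role; each point is a gene, red bars are list medians and the dashed line is the median of all tested genes, 0.07. Points lie on both sides of 0 in every group but the last, Tsnax alone, and no gene passed the adjusted threshold.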

How the data were processed

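RNA of 6 hippocampal libraries, 3 from DHT-treated and 3 from oil-treated mice, was sequenced, and per the labels' protocols circRNA levels were given as spliced reads scaled to mapped reads. Tools named, per the submitters' processing notes, are HISAT2 2.0.1, BWA, cutadapt and bcl2fastq 2.17.1.14, with the build mm9. No name of a circRNA caller, assembler or FPKM tool was found in those notes or the labels. Deposited coordinates lie within the GRCm38 bounds of the host gene for 99.5% of 11392 circRNAs, so they were read as GRCm38 and set beside RefSeq GRCm38.p6 windows.

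The authors deposited FPKM per first-exon, last-exon or splicing event of assembled loci. Reads behind an event are unknown. The authors' circRNA files give counts of back-splice junction reads of at least 2 per library, counts of linear reads, and a score, the level scaled to mapped reads, rounded down. An unlisted circRNA was taken as 0.

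Gene values were the larger of the first-exon and last-exon sums, and genes averaging 0.5 FPKM or more were tested with limma 3.58.1 (R 4.3.3) on log2(FPKM + 0.5), which understates changes of low genes. First-exon use was the log2 ratio of an event to the other first exons of its locus, splicing use that of the version with the exon or intron to the version without, each + 0.5 and tested with limma. Counts of circRNAs, and of host genes, with at least 20 reads went into the quasi-likelihood test of edgeR 4.0.16 with TMM factors, with DESeq2 1.42.0 as the alternative. Adjusted p are Benjamini-Hochberg values over each whole table, with a threshold of 0.05, two-sided. The limma procedures were tested on simulated data with the spread of these libraries. Those of edgeR and DESeq2 were tested on simulated counts with the mean levels and depths of these libraries. The spread of those counts was a single fixed dispersion, not estimated from the libraries. With the spread of the libraries the tests of first-exon and splicing use recovered almost none of the known changes. With the fixed dispersion the circRNA tests recovered few. A lack of calls in these tests therefore does not show equal use or level. Neither does a lack of calls in the gene-value test, whose recovery is not given here. Intervals and limits for counts cover counting error only (a count of 0 allows 3 reads).

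The members and lists were chosen with earlier results of these data known. Named were every member, circles of at least 20 reads with the fullest of each gene below that, first exons with a mean share of 10% to 90%, splicing pairs by the same shares, the 5 genes most like Disc1, and the 3 smallest p per direction of the wider list. Some items are not reported here. Of that list Ywhae was listed at 0, Pde4c was under the filter, and Pcnt and Rhot2 were not analysed here. Counting by strand is not stated, so reads of genes overlapping Pde4b, Pde4d and Fez1 cannot be told apart from theirs.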

Additional observations from a re-analysis of the deposited data

How the results depend on the processing

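The calls among the 6 partners, the wider list, the member circles, their host sums, first exons and splicing pairs stayed at 0 under every alternative run. The count over all genes, 2, became 1 with a pseudocount of 0.1 FPKM, 0 with first-exon sums only, with last-exon sums only or with the fullest event, 1 without DHT library 2 and oil library 3 together, and 0 to 4 on leaving out 1 library. The count over all circRNAs, 0, became 6 with at least 6 reads and 0 to 1 on leaving out 1 library. The log2 fold change of Disc1 was 1.83 with a pseudocount of 0.1 and 0.92 with 1, 0.69 by its fullest event, 0.21 with the annotated first exon alone and 0.36 without those near the end (the last 2 chosen after seeing the data), and 1.13 to 1.44 on leaving out 1 library. Pde4d turned to -0.31 with last-exon sums only. On leaving out 1 library, Nde1 ran from -0.12 to 0.33, the Pde4d circle at 109740387 from -0.80 to 0.16 and that at 109933868 from -0.85 to 0.11. Likewise the use of the Pde4b exon at 102589723 ran from -0.26 to 0.053, of the Pde4d exon at 109686156 from -0.58 to 0.80 and of that at 109926844 from -0.40 to 0.32. Without DHT library 2 and oil library 3 together the circle at 109740387 stood at 0.15, the exon at 109686156 at -0.34, that at 109926844 at 0.34 and the gene value of Nde1 at 0.44. The cause was not tested. Of all other values under alternatives for single genes, circles and events, 257 kept their direction and, where tested, their side of the threshold. Those of Disc1 among them were not tested and count by size and direction only. No paired analysis was possible because the labels give no replicate numbers shared between the groups: the titles carry a different number for each sample, and libraries 1 to 3 of each group are names given in accession order, which pair nothing. FPKM carry no depth, and a member circle has 2 to 45 reads, which limits what could be seen.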
